A study of Mus musculus with 4 samples.

Results

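Of the 54532 genes in the deposited tables, 7 are described here by their gene name: the nuclear receptors Nr4a1, Nr4a2 and Nr4a3, the salt-inducible kinases Sik1, Sik2 and Sik3, and the clock repressor Per1. All 7 were found. The cells, spleen PMN-MDSC (granulocytic suppressor cells of the myeloid lineage, which resemble neutrophils and inhibit T cells), were purified from newborn C57BL/6 mice. One group was cultured for 5 days with NECA, an agonist of adenosine receptors, at a dose not given in the labels, and the other with its solvent DMSO. Each group held 2 libraries, numbered 1 and 2, made from the RNA of 300000 lysed cells per condition. The labels do not tell if libraries sharing a treatment are separate pups or cultures, so the p-values reflect only how far these samples spread, which may be technical.

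Some adenosine receptors couple to the stimulatory G protein and raise cyclic AMP (cAMP). cAMP frees the catalytic subunits of protein kinase A, which phosphorylate the transcription factor CREB at cAMP response elements (CRE). Protein kinase A also phosphorylates the SIK kinases, which are then held by scaffold proteins of the Ywha family and no longer restrain the CREB coactivators of the CRTC family or the class IIa histone deacetylases. Nr4a1, Nr4a2, Nr4a3, Sik1 and Per1 are textbook early targets of this route, induced within hours and usually transiently, whereas Sik2 and Sik3 are mostly expressed without a stimulus. In myeloid cells NR4A receptors dampen inflammatory transcription, and Nr4a1 is required for patrolling monocytes.

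The NR4A genes have several CRE half-sites just before the transcription start, shown here because the known route to these genes runs through CREB. A CRE half-site reads TGACG, or CGTCA on the other strand, and the full palindrome reads TGACGTCA, which would count as a match on each strand. In the 250 bases upstream of the RefSeq start site (build GRCm38.p6), each of the 3 NR4A genes had 4 half-site matches. Of 32851 such windows in the reference, 45 (0.137%) held at least 4 matches and 5836 (17.8%) held at least 1. The windows of the 3 NR4A genes and of the second Per1 start are printed 5′ to 3′ on the strand of the gene, with the half-sites in capitals. The RefSeq starts of Nr4a1, Nr4a3 and Per1 lie inside the genes as GENCODE draws them, so part or all of these windows is within the annotated gene.

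Nr4a1, chr15:101266596-101266845, plus strand: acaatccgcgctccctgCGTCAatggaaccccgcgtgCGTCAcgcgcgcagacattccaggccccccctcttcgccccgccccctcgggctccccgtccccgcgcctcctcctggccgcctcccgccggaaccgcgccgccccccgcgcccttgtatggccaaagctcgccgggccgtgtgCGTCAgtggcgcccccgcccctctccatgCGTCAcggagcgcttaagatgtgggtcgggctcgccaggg
Nr4a2, chr2:57124004-57124253, minus strand: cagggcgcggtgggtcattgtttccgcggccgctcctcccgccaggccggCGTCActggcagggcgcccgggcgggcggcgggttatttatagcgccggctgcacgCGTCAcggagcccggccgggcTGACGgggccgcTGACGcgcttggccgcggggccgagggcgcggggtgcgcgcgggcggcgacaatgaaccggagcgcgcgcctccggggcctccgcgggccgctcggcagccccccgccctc
Nr4a3, chr4:48045055-48045304, plus strand: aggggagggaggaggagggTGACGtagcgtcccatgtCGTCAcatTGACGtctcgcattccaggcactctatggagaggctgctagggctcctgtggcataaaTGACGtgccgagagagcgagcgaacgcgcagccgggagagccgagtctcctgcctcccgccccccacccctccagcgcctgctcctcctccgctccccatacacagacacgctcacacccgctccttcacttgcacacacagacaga
Per1 (second start), chr11:69099902-69100151, plus strand: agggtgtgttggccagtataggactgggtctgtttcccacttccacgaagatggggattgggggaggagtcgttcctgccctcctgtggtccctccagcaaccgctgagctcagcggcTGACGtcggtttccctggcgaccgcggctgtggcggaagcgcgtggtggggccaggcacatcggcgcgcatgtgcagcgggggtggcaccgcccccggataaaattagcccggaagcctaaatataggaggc

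**Figure D1:**
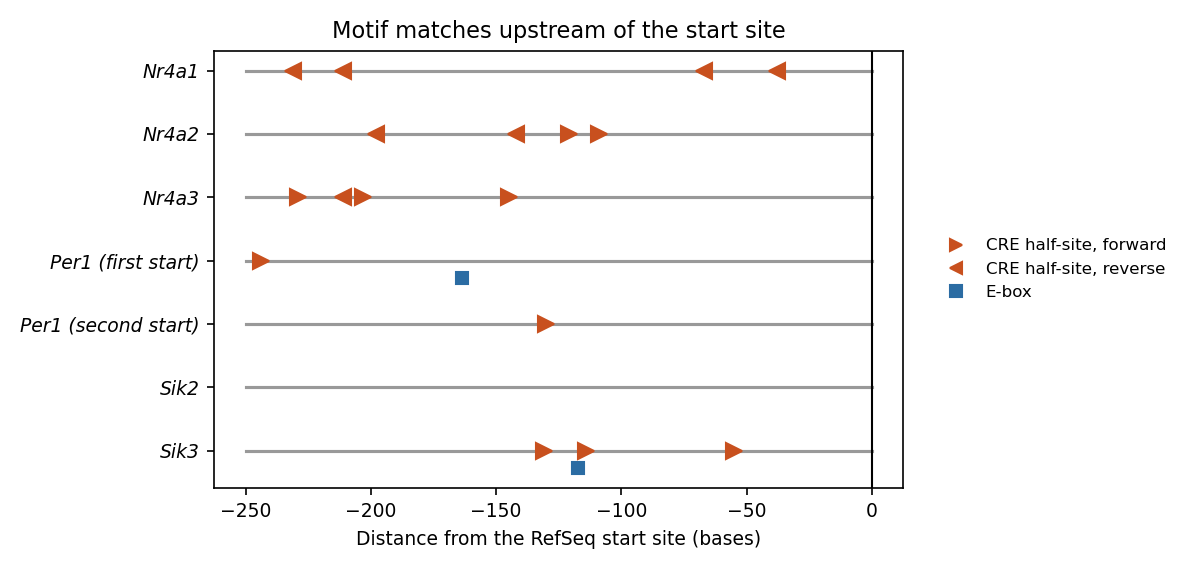
Positions of motif matches in the 250 bases before the RefSeq start sites of 6 genes (Sik1 is not shown), with the distance from the start in bases on the x axis. Triangles are CRE half-sites pointing along (right) or against (left) the gene and squares are E-boxes. Nr4a1, Nr4a2 and Nr4a3 have 4 half-sites each, Sik3 has 3, each Per1 start has 1 and Sik2 has none.

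In Nr4a1 all 4 matches read CGTCA, and the pair nearest the start began 69 and 40 bases upstream. In Nr4a2 the matches began 200, 144, 123 and 111 bases upstream, and in Nr4a3 231, 213, 205 and 147 bases upstream. Sik3 had 3 matches, which 0.688% of windows reached or passed. Each of the 2 annotated Per1 starts had 1 match, and the window of Sik2 had 0. None of these 7 windows, which belong to 6 genes and not to Sik1, held the full palindrome, which 1.55% of all windows did. The E-box CACGTG, the element bound by the clock activators, occurred once before the first Per1 start and once before Sik3, where it overlapped a half-site, and in 6.02% of all windows. That search was added after the sequences were seen. The windows were rich in G and C, from 62.0% before the first Per1 start to 80.0% before Nr4a2 and Sik2. The shares over all windows were not matched for this content, so they are not those of windows equally rich in G and C. A match is a run of letters and not a measured binding site.

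Library totals ranged from 15864120 (NECA replicate 2) to 18712625 counts. Neutrophil markers were abundant. Together 15 neutrophil genes, S100a8, S100a9, Ltf and Ngp among them, held 123645 to 138525 CPM (a library's count share, on totals scaled by TMM) in each library. This sum cannot tell PMN-MDSC from neutrophils. With NECA 46 genes were higher (0.352%) and 128 lower (0.978%) of 13083 tested by edgeR (quasi-likelihood, adjusted p under 0.05), 1.33% in all.

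Sik1 was the most abundant of the 7 genes per gene length, and its transcript, like that of Per1, was lower in both NECA libraries than in either DMSO library, by amounts that did not pass the test over all genes. Nr4a1, Sik2 and Sik3 had overlapping groups. Nr4a2 and Nr4a3 were at the limit of detection with and without NECA. The 5 members that passed the filter on low counts were Nr4a1, Sik1, Sik2, Sik3 and Per1. Of these, edgeR's quasi-likelihood test called 0, against 1.33% of all genes. DESeq2 called 0 of them, against 285 of 11134 genes, and limma on FPKM 0, against 1 of 13083. A count of 0 from limma was thus almost fixed in advance. At an unadjusted p under 0.05, 2 of the 5 (Sik1 and Per1) passed, against 15.7% of all genes. The same 2 lay lower in both NECA libraries, which 24.2% of all genes tested did. None lay higher in both, which 22.4% did. Groups that did not overlap in either direction made up 2 of 5 members and 46.7% of all genes.

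Levels are compared between genes as FPKM, the deposited value per gene length and library size. In the DMSO libraries Sik1 came first at 22.5 ± 2.21 FPKM (SD, n = 2, as for all means here), followed by Sik3 at 11.0 ± 0.767 and Nr4a1 at 10.0 ± 0.535. Per1 stood at 5.86 ± 0.566 and Sik2 at 3.30 ± 0.111. The order was the same with NECA, at 18.1 ± 0.306 FPKM for Sik1, 11.3 ± 0.715 for Sik3, 8.49 ± 2.16 for Nr4a1, 4.87 ± 0.213 for Per1 and 3.36 ± 0.634 for Sik2. The closest neighbours in that order were Sik3 and Nr4a1, whose nearest DMSO libraries stood at 10.5 and 10.4 FPKM, so these 2 levels differed by little more than their spread. Among tested genes, Sik1 ranked between the 81.2 and 86.1 percentiles of FPKM in the 4 libraries and Sik2 between 45.6 and 50.9. Nr4a2 did not exceed 0.0913 FPKM and Nr4a3 did not exceed 0.0265 FPKM in any library.

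**Figure D2:**
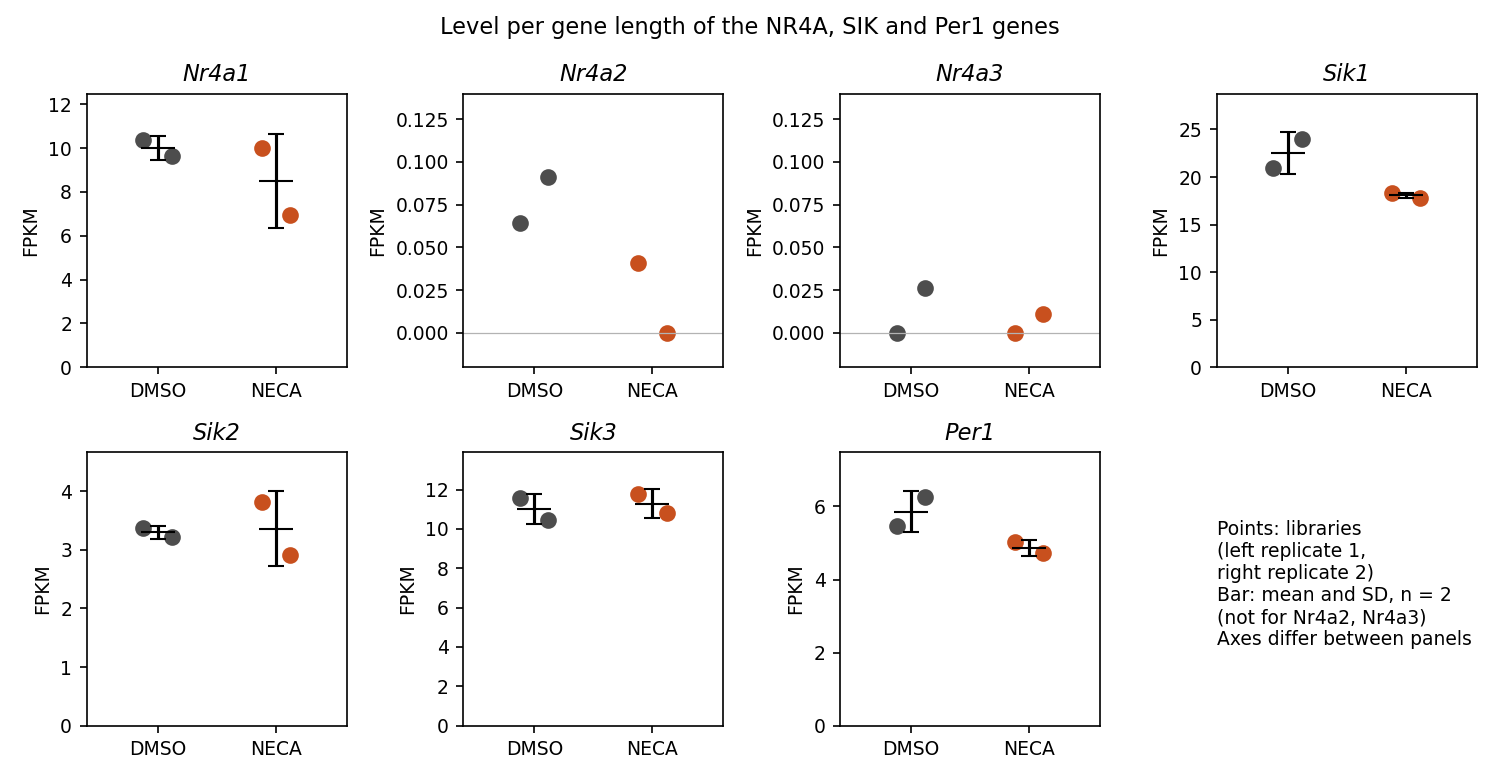
Deposited FPKM of each gene in each library, with NECA in orange and DMSO in grey. Horizontal bars are the mean and whiskers the SD of 2 libraries (not drawn for Nr4a2 and Nr4a3), and the axes differ between panels. Sik1 and Per1 are lower in both NECA libraries, whereas the single low NECA library of Nr4a1 stands at 6.96 FPKM beside 10.0 in the other.

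Nr4a1, an orphan receptor also induced in activated lymphocytes (chromosome 15, 101254269 to 101274795, GRCm38), had 699 and 638 counts with DMSO and 639 and 377 counts with NECA. Per gene length these were 10.4 and 9.62 FPKM against 10.0 and 6.96 FPKM. NECA replicate 1 lay between the DMSO libraries and only NECA replicate 2 was lower. The log2 fold change was -0.24 (SE 0.14, adjusted p = 0.47 by edgeR's quasi-likelihood test), a ratio of NECA to DMSO of 0.847 with a 95% interval of 0.682 to 1.05. The value rested on 1 library. Without NECA replicate 1 it was -0.53 (adjusted p = 0.0113) and without NECA replicate 2 it was -0.0047 (adjusted p = 0.996). The log2 difference between the NECA libraries, replicate 2 minus replicate 1, was -0.53, larger than that between the group means (-0.27).

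Nr4a2 (chromosome 2, 57106830 to 57124003), the family member known from dopaminergic neurons, had 5 and 7 counts with DMSO and 3 and 0 counts with NECA. In a library of these sizes a count of 0 allows up to 3 counts, 0.189 CPM of the total in NECA replicate 2. Summed over libraries the rate with DMSO was 3.73 times that with NECA, with a 95% counting interval of 1.01 to 20.6 from 12 and 3 counts. That interval covers counting error and not the spread between libraries. Nr4a3 (chromosome 4, 48045153 to 48086447) had 0 and 3 counts with DMSO and 0 and 1 counts with NECA, at or under the 3 counts that a count of 0 allows in every library, so no ratio is given. Nr4a2 and Nr4a3 were too low for the test. Nr4a1 supplied 98.8% to 99.8% of the summed FPKM of the 3 receptors in the 4 libraries. All 3 upstream windows printed above carry the same number of CRE half-sites.

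Sik1 (chromosome 17, 31844250 to 31855804), the SIK kinase whose own gene is induced by cAMP, had 1811 and 2049 counts with DMSO and 1499 and 1242 counts with NECA. These corresponded to 20.9 and 24.0 FPKM against 18.3 and 17.8 FPKM. Both NECA libraries were lower than both DMSO libraries, so leaving out 1 library could hardly turn the sign. The NECA libraries differed from each other by less than the DMSO libraries did. The log2 fold change was -0.32 (SE 0.08), a ratio of 0.799 with a 95% interval of 0.709 to 0.901 that is not corrected for the number of genes. Its adjusted p of 0.0725 by edgeR's quasi-likelihood test missed the threshold. Without DMSO replicate 2, the library with the highest Sik1, the value was -0.22 (adjusted p = 0.299), and without NECA replicate 1 it was -0.34 (adjusted p = 0.00956). Sik1 passed in 4 of 12 alternative fits and lay below 0 in all 12.

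Sik2 (chromosome 9, 50892801 to 51009073), the kinase that is a main regulator of CRTC coactivators in several tissues, had 3.38 and 3.22 FPKM with DMSO and 3.81 and 2.91 FPKM with NECA. The NECA libraries lay on either side of both DMSO libraries. The ratio of NECA to DMSO was 1.02, with a 95% interval of 0.842 to 1.23 (log2 fold change 0.02, SE 0.12, adjusted p = 0.957 by edgeR). Counts of Sik2 are uncertain, because 1429 of the exonic bases of Sik2 overlap Ppp2r1b on the opposite strand and the use of strand in counting is not given in the sources used here. Sik3 (chromosome 9, 46012820 to 46224194), the largest of the SIK kinases, had 11.5 and 10.5 FPKM with DMSO and 11.8 and 10.8 FPKM with NECA, and its groups overlapped. Its ratio was 1.02, with a 95% interval of 0.911 to 1.14 (log2 fold change 0.03, SE 0.08, adjusted p = 0.906 by edgeR). The signs of the Sik2 and Sik3 values turned with library size alone as the scale, without DMSO replicate 2 and without NECA replicate 1.

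Among the 3 kinases, Sik1 made up 58.4% and 63.7% of the summed FPKM with DMSO and 53.9% and 56.6% with NECA. Sik3 made up 32.2% and 27.7% against 34.8% and 34.2%, and Sik2 between 8.53% and 11.2% in the 4 libraries. The ratio of Sik1 to Sik3, which does not depend on how libraries are scaled, was 1.81 and 2.30 with DMSO and 1.55 and 1.65 with NECA. Both NECA ratios were below both DMSO ratios. An exact two-sided permutation test of 2 libraries against 2 cannot give a p below 0.333.

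Per1 (chromosome 11, 69095217 to 69109960), a repressor of the circadian clock whose gene also answers directly to CREB and to the glucocorticoid receptor, had 590 and 666 counts with DMSO and 514 and 410 counts with NECA. In FPKM these were 5.46 and 6.26 against 5.02 and 4.72. The groups did not overlap, so leaving out 1 library could hardly turn the sign. The gap between the lowest DMSO and the highest NECA library was smaller than that between the DMSO libraries. The log2 fold change was -0.27 (SE 0.11, adjusted p = 0.243 by edgeR's quasi-likelihood test), a ratio of 0.827 with a 95% interval of 0.702 to 0.974. Without DMSO replicate 2 the value was -0.17 (adjusted p = 0.637). Per1 was below 0 in all 12 alternative fits and called in 0 of them.

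**Figure D3:**
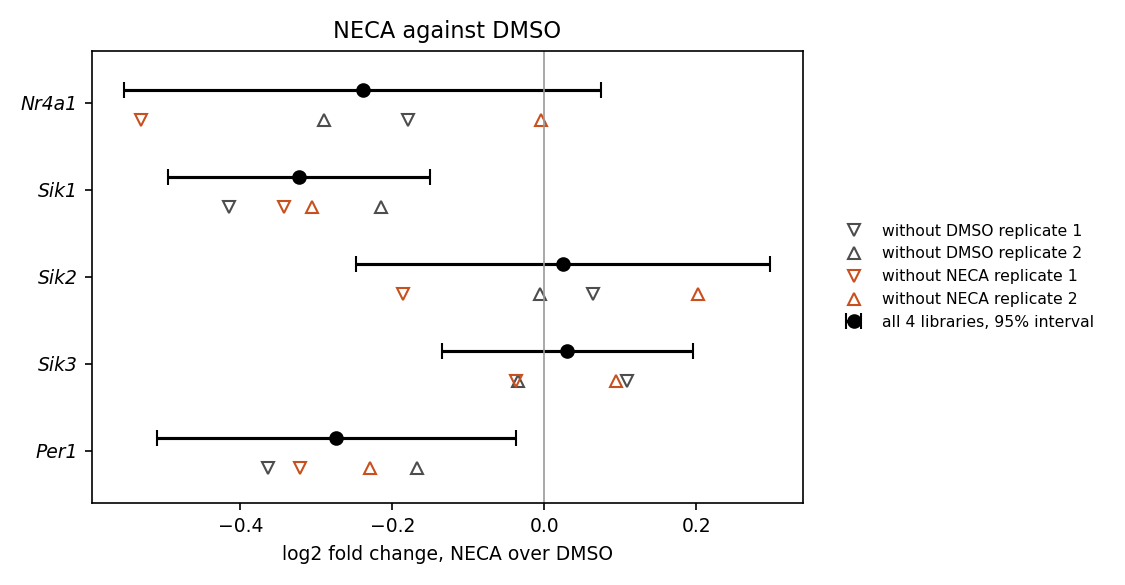
Log2 fold change of NECA over DMSO for the 5 tested genes. Black points are the fit to all 4 libraries with its 95% interval, and open triangles leave out 1 library each. Sik1 and Per1 stay below 0 throughout, which groups that do not overlap almost fix in advance. The value of Nr4a1 runs from -0.53 to -0.0047, and those of Sik2 and Sik3 lie on both sides of 0.

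Among the other genes known to be induced through cAMP and CREB, Fos, Egr1, Thbs1, Dusp1 and Fosb fell with NECA and none was called higher. Of 30 symbols in that list 29 matched a gene and 23 were tested. Of the 23, 0 were higher, 5 were lower and 18 did not pass edgeR's quasi-likelihood test, against 0.978% of all genes called lower. Their median log2 fold change was -0.26, and that of all genes tested was -0.0065. The list was drawn up with earlier results of these data known, so its direction is not independent evidence.

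Egr1, an early zinc finger factor, fell from 15.2 and 35.4 CPM in the DMSO libraries to 6.64 and 5.29 CPM in the NECA libraries (log2 fold change -2.08, SE 0.32, adjusted p = 0.00978 by edgeR). Fos, a subunit of the AP-1 factor, fell from 114 and 142 CPM to 80.3 and 74.0 CPM (-0.73, SE 0.095, adjusted p = 0.00359). Dusp1, the phosphatase that switches off MAP kinases, fell from 76.7 and 82.3 CPM to 58.8 and 63.4 CPM (-0.38, SE 0.08, adjusted p = 0.0372). In all 3 genes both NECA libraries were below both DMSO libraries, as for Sik1, Per1 and 24.2% of all genes tested. The 3 were named for their small p, which favours such a gap. Thbs1, a secreted matrix glycoprotein, fell from 4542 and 4898 CPM to 3914 and 3468 CPM (-0.36, adjusted p = 0.010 by edgeR). Its count is uncertain, since 208 exonic bases of Thbs1 overlap an antisense gene. Fosb, an AP-1 subunit named after its values were seen, fell from 5.74 and 5.09 CPM to 1.81 and 2.19 CPM (-1.44, SE 0.29, adjusted p = 0.0372).

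Other genes of the list did not pass: the CREB family gene Crem stood at -0.27 (adjusted p = 0.711), the cAMP phosphodiesterase gene Pde4b at -0.26 (adjusted p = 0.254), Junb at -0.20 (adjusted p = 0.312), Rgs2 at 0.01 (adjusted p = 0.963) and Nfil3 at 0.14 (adjusted p = 0.44), all by edgeR. These were named after their values were seen. DMSO replicate 2 was the highest of the 4 libraries for 13 of the 23 genes, against 27.1% of all genes tested, and for Sik1 and Per1. Without it the median was -0.02 and Egr1 stood at -1.34, Fos at -0.56, Fosb at -1.52, Dusp1 at -0.32 and Thbs1 at -0.30. Without DMSO replicate 1 the median was -0.40. With limma on FPKM, which called 1 of 13083 genes in all, none of the 23 was called. What set DMSO replicate 2 apart was not tested.

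**Figure D4:**
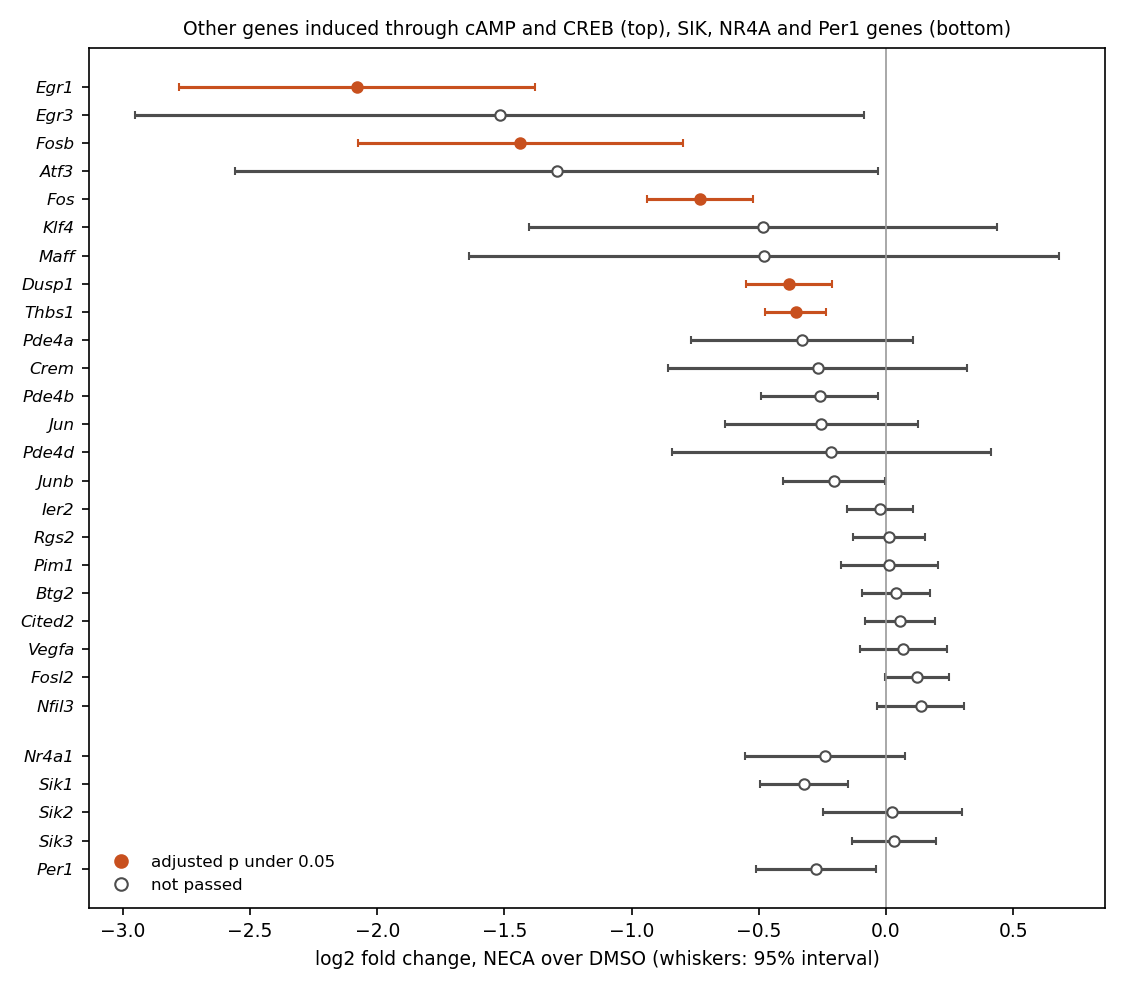
Log2 fold change of NECA over DMSO with its 95% interval for the 23 tested genes of the cAMP and CREB list (upper rows) and the 5 tested members (lower rows). Filled orange points passed an adjusted p of 0.05 in edgeR's test. All 5 filled points lie below 0, and the intervals of Sik1 and Per1 lie below 0 without passing.

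No gene of the machinery around the SIK kinases passed. Of 26 tested genes (the activating LKB1 complex, protein kinase A, the Ywha scaffolds, CRTC coactivators, class IIa histone deacetylases and CREB with its acetyltransferases) 0 were called by edgeR's quasi-likelihood test, 4 had an unadjusted p under 0.05 beside 15.7% of all genes, and the median log2 fold change was 0.05. By DESeq2, 1 was higher and 0 were lower, where 285 of 11134 genes were called. By limma 0 were called, where 1 of 13083 genes was. Ep300, an acetyltransferase that works with CREB, had 329 and 321 CPM in the DMSO libraries and 393 and 368 CPM in the NECA libraries (log2 fold change 0.23, adjusted p = 0.0709 by edgeR, 0.0105 by DESeq2). Prkacb, a catalytic subunit of protein kinase A, had 47.1 and 48.4 CPM against 40.0 and 36.9 CPM (-0.31, adjusted p = 0.102 by edgeR). The deacetylase substrates Hdac7 and Hdac9 stood at -0.27 (adjusted p = 0.206) and -1.28 (adjusted p = 0.0918), the second at 4.85 and 3.61 against 2.03 and 1.42 CPM. The coactivators Crtc1, Crtc2 and Crtc3 stood at 0.20, 0.03 and 0.16.

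Of 9 tested kinases related to AMPK, the wider family of the SIK kinases, 0 were called by edgeR, 3 had an unadjusted p under 0.05 (15.7% of all genes) and the median was 0.16. Mark2, a polarity kinase, stood at 0.21 (adjusted p = 0.103 by edgeR, 0.0359 by DESeq2, where it was the 1 called gene). Snrk stood at 0.16 (adjusted p = 0.212 by edgeR), and its count is uncertain, since it shares 422 bases with another gene. Nuak1 stood at -1.92 (adjusted p = 0.12), with no library above 2.33 CPM. Prkaa2 and Mark1 had 0 counts in all 4 libraries. No kinase of this list was called by limma, which called 1 of 13083 genes in all.

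Partners and coregulators of NR4A receptors (12 tested) had a median of 0.05. The calls were 0 by edgeR, DESeq2 and limma, which over all genes called 174 of 13083, 285 of 11134 and 1 of 13083. An unadjusted p under 0.05 was reached by 2, beside 15.7% of all genes. Rxra, which encodes a dimer partner of Nr4a1 and Nr4a2, had 39.2 and 36.6 CPM in the DMSO libraries against 34.5 and 32.7 CPM (-0.17, adjusted p = 0.413 by edgeR). Its paralogue Rxrb stood at 0.06, and Rxrg had 0 counts in all 4 libraries. The corepressor genes Trim28 and Ncor1 stood at -0.32 (adjusted p = 0.0923) and 0.13 (adjusted p = 0.235).

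Clock genes other than Per1 (18 tested) had a median of -0.05, with 0 called by edgeR, DESeq2 or limma. Over all genes these called 174 of 13083, 285 of 11134 and 1 of 13083. An unadjusted p under 0.05 was reached by 3, beside 15.7% of all genes. Per2, the closest relative of Per1, had 74.7 and 71.1 CPM in the DMSO libraries against 78.7 and 76.9 CPM (0.09, adjusted p = 0.597 by edgeR). Both NECA libraries of Per2 were above both DMSO libraries, the opposite side from Per1, as in 22.4% of all genes tested. Per3 stood at 0.56 (adjusted p = 0.324). The repressor genes Nr1d2 (-1.94, adjusted p = 0.0823 by edgeR) and Bhlhe41 (-2.10, adjusted p = 0.112) were low in all libraries. So was the activator gene Tef (-1.27, adjusted p = 0.147), and none of these genes exceeded 5.27 CPM. Their counts are uncertain. Nr1d2 shares 1385 bases with an annotated copy, and Bhlhe41 and Tef overlap an antisense gene over 1280 and 193 bases.

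Genes induced through the glucocorticoid receptor, another known route to Per1, stood on both sides of 0. Of 12 tested, 0 were higher and 2 were lower by edgeR (Dusp1 and the metallothionein gene Mt1, at -1.96, adjusted p = 0.0254), with a median of 0.05 and 6 genes at an unadjusted p under 0.05 (15.7% of all genes). By edgeR 0.978% of all genes were called lower. By limma 0 of the list were called, where 1 of 13083 genes was. Without DMSO replicate 1 Dusp1 stood at -0.43 and Mt1 at -2.17, and without DMSO replicate 2 at -0.32 and -1.72. Fkbp5, a receptor cochaperone, stood at 0.29 (adjusted p = 0.088) and Tsc22d3, an anti-inflammatory target, at -0.22 (adjusted p = 0.133).

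Markers of monocytes, macrophages and other blood cells were lower in the NECA libraries too. In bulk RNA, fewer cells of a type and less of its RNA per cell cannot be told apart. By edgeR 0.352% of all genes were called higher and 0.978% lower. Monocyte and macrophage markers (16 of 16 tested, 0 higher and 13 lower) summed to 820 and 714 CPM in the DMSO libraries against 389 and 307 CPM. B cell markers (9 of 9 tested, 0 higher and 1 lower) summed to 147 and 154 against 78.7 and 13.7 CPM, and Ebf1 had 0 counts in NECA replicate 2. Erythroid markers (9 of 9 tested) summed to 1227 and 529 against 374 and 58.6 CPM, dendritic cell markers (5 of 9 tested) to 117 and 118 against 68.1 and 14.8 CPM, and T and NK cell markers (5 of 10 tested) to 25.05 and 29.5 against 17.3 and 17.9 CPM. The dendritic sum was mostly Cd74 (82.8 and 87.8 against 43.7 and 4.07 CPM) and H2-Aa, which B cells also express, and the groups of Itgax and Cd209a overlapped. The erythroid, dendritic and T and NK cell lists had 0 calls by edgeR, DESeq2 or limma. Over all genes edgeR called 174 of 13083, DESeq2 285 of 11134 and limma 1 of 13083. At an unadjusted p under 0.05 by edgeR these lists had 9, 2 and 3 genes, beside 15.7% of all genes. Cd3e, Klrb1c and Ncr1 had 0 counts in both NECA libraries, and Gata3 and Siglech had 0 in NECA replicate 2. A count of 0 allows up to 3 counts, and the DMSO counts of these genes and of Ebf1 are not given here.

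Patrolling monocyte markers, the cells in which Nr4a1 is best known, had no called gene of 10 tested by edgeR, beside 1.33% of all genes. There were 4 at an unadjusted p under 0.05 by edgeR, beside 15.7% of all genes. By DESeq2 1 was lower, beside 134 of 11134 genes. Of the 10, 8 lay below 0, and the median log2 fold change was -0.36. Their sum of 1130 to 1179 CPM with DMSO and 1159 to 1248 CPM with NECA was mostly Itgal, an integrin that neutrophils also carry, at 889 and 849 CPM in the DMSO libraries against 971 and 932 CPM. Pou2f2, a transcription factor, had 15.8 and 13.5 against 8.39 and 3.81 CPM (adjusted p = 0.056 by edgeR) and Pparg, a lipid-sensing receptor, 4.54 and 3.45 against 1.65 and 0.968 CPM (adjusted p = 0.0654), both low in the 2 NECA libraries. Ace, a peptidase of patrolling monocytes, had 30.9 and 26.1 CPM in the DMSO libraries against 27.05 and 9.30 CPM, and Cx3cr1, their chemokine receptor, had 8.87 and 7.74 against 7.79 and 3.36 CPM. Ace and Cx3cr1 were picked after their values were seen, and both were lowest in NECA replicate 2. No marker of this list was at 0 counts. Neutrophil markers (15 of 15 tested) had 2 genes higher and 0 lower by edgeR, and 6 higher and 0 lower by DESeq2. By edgeR 12 had an unadjusted p under 0.05, and 13 lay above 0. Over all genes 0.352% were higher and 0.978% lower by edgeR, and 15.7% had an unadjusted p under 0.05. By DESeq2 151 of 11134 were higher and 134 lower. The part of any of these cell types in the values of Nr4a1, Sik1 and Per1 was not tested.

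**Figure D5:**
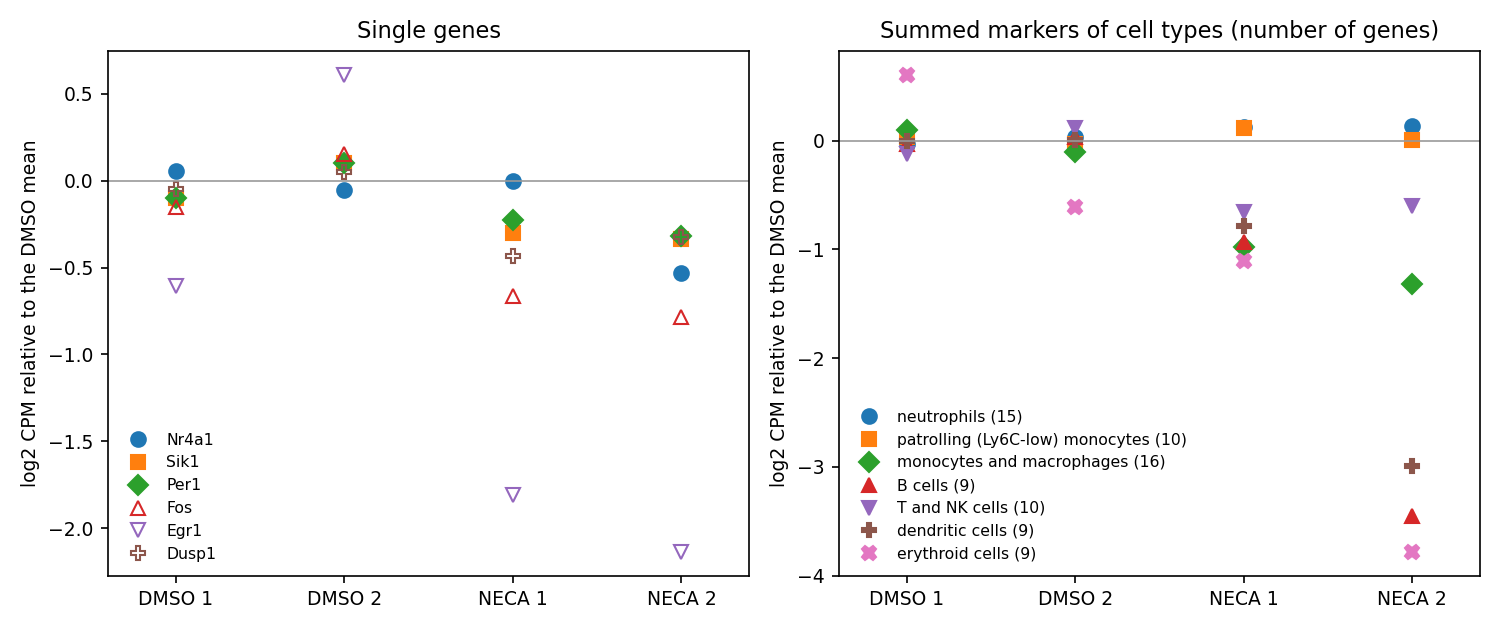
Log2 CPM of each library relative to the mean of the DMSO libraries, for Nr4a1, Sik1 and Per1 beside 3 other cAMP-induced genes (left) and for the summed markers of 7 cell types (right, number of genes in brackets). The axes differ in range. Nr4a1 is low in NECA replicate 2 only, while Sik1 and Per1 are low in both NECA libraries. NECA replicate 2 also has the lowest monocyte and macrophage, B cell, dendritic and erythroid sums.

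The genes whose profile over the 4 libraries lay closest to each member were found by the root mean square difference of centred log2 CPM, among 8557 other genes whose mean reached 5 CPM. With 4 libraries this likeness is loose. Hsh2d was among those of Nr4a1 (0.033). For Sik1 they were Man2c1 (0.011) and G3bp1 (0.017), and for Per1 Atl3 (0.019) and Zfp429 (0.021). For Sik2 they were Zbtb48 (0.018) and Kat14 (0.020) and for Sik3 Glb1 (0.0047) and Mast3 (0.0068). Some of these counts are uncertain because of bases in common with other genes. These were 1399 bases for G3bp1, 693 for Kat14, 461 (antisense) for Man2c1 and 278 for Zfp429, and fewer for Glb1 and Atl3. Within a difference of 0.05 lay 5 genes for Nr4a1, 50 for Sik1, 44 for Sik2, 68 for Per1 and 520 for Sik3.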

How the data were processed

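RNA of PMN-MDSC was sequenced in 4 libraries, and each deposited table gives a read count and an FPKM value per Ensembl gene, per the file headers. Per the submitters' processing notes, the tools included HISAT, StringTie and edgeR and the builds were mm10 and GRCm38. Tool versions, the counter, the gene annotation and strand handling: not given in the sources used here. SMARTer amplification without molecular identifiers is described in the labels' protocols, so counting intervals cover counting error only.

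The deposited counts were analysed in R 4.3.3. Genes were kept by filterByExpr (minimum count 10, 13083 genes), scaled by TMM and tested with edgeR 4.0.16 (quasi-likelihood, 2 residual degrees of freedom, no replicate block), with Benjamini-Hochberg adjustment over all genes and a threshold of 0.05. SE is the fold change over the root of F, and 95% intervals use the test's degrees of freedom. The deposited FPKM were used for levels between genes and, as log2(FPKM + 0.1) or log2(FPKM + 1), in limma 3.58.1. DESeq2 1.42.0 and other filters, scales and left-out libraries were alternatives. Positions and overlaps come from GENCODE M21, shared bases from blastn 2.17.0 (at least 100 bases at 95% identity), promoters from RefSeq. Shared or overlapping bases are not given for every named gene. Named genes were the members, in each list the 4 genes of smallest p, and the 2 most alike in profile, some of which are not reported here; Fosb, Crem, Pde4b, Junb, Rgs2, Nfil3, the Crtc genes, Rxra, Rxrb, Per2, Ace and Cx3cr1 were chosen after their values were seen. Members and lists were chosen with earlier results of these data known. The test was tried on simulated data. One listed symbol, Icer, matched no gene.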

Additional observations from a re-analysis of the deposited data

How the results depend on the processing

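With all 4 libraries 0 of 5 tested members and 174 genes were called. The members called were 1 with library size alone (Sik1, -0.39, adjusted p = 0.0267), 1 without a filter on low counts (Sik1, adjusted p = 0.00178) and 0 to 2 when 1 library was left out, the 2 being Sik1 and Nr4a1 without NECA replicate 1. All genes called numbered 285 with DESeq2, 875 without a filter, 1 with limma on log2(FPKM + 0.1) and 1 on log2(FPKM + 1), and 53 (without DMSO replicate 1) to 821 (without NECA replicate 1) with 1 library left out. Library size alone gave 21 higher and 217 lower genes against 46 and 128, and shifted the median gene by -0.07 (log2). Fits with 1 library in a group assume that it varies like the other group. The libraries share replicate numbers, but deviations of same-numbered libraries correlated at r = 0.02 over 13083 genes and nothing in the labels pairs them. With the replicate block 421 genes and 1 member (Sik1, -0.32, adjusted p = 0.0373) were called. With library size alone Sik2 was -0.048 and Sik3 -0.042; leaving out 1 library, Sik2 ran from -0.19 (NECA replicate 1) to 0.20 (-0.0061 when DMSO replicate 2 was out) and Sik3 from -0.038 (NECA replicate 1) to 0.11 (-0.035 when DMSO replicate 2 was out). Nr4a1, Sik1 and Per1 kept their direction in all 12 alternatives. For Sik1 and Per1, whose groups did not overlap, leaving out 1 library could hardly turn it. Without a filter Nr4a2 and Nr4a3 were not called (adjusted p = 0.825 and 0.90 by edgeR). The causes of these changes were not tested. Depth limits Nr4a2 and Nr4a3, with at most 7 and 3 counts per library.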
